A study of Homo sapiens with 12 samples.

Results

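Metallothioneins are small proteins, rich in cysteine, that hold zinc and copper ions, and SLC30A1 is the transporter that carries zinc out of the cell across the plasma membrane. Their transcription is driven by MTF1, a zinc-finger factor that senses free zinc and binds metal response elements in the promoters of its targets. Glucocorticoids and metal or oxidative stress also raise metallothionein transcription in many cell types. The genes described here were the 5 metallothionein genes MT1E, MT1F, MT1G, MT1X and MT2A, with SLC30A1 and MTF1, picked by name from the 19251 genes listed for each library. All 7 were in the files, and all 7 passed the filter on low values used for testing.

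The 12 libraries came from CAOV3, an ovarian cancer line of high grade serous type, and TOV21G, a line of clear cell type, both labelled epithelial and wild type. Each line was either untreated (labelled none) or held for 16 h in medium that contained 10% ascites (150 µL added to 1.5 mL), a fluid that builds up around the abdominal organs of patients with this cancer. All cultures, controls included, were grown with 10% fetal bovine serum and antibiotics from 250000 seeded cells. There were 3 libraries in each of the 4 groups. The labels name no vehicle for the controls and do not say from whom the ascites came, whether it was pooled, or whether the 3 libraries of a group were separate cultures, so p-values measure the spread between these libraries, which may be technical.

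The libraries held 26697609 to 34491304 reads in listed genes. All 5 epithelial markers (EPCAM, KRT8, KRT18, KRT19, CDH1) were present in both lines, with a summed normalised count of 131717 to 162634 in CAOV3 and 10412 to 12423 in TOV21G. Against the serous label, the Mullerian markers summed to only 22.6 to 28.6 in CAOV3, where 2 of 3 were listed, and to 7032 to 9578 in TOV21G. Of 6 leukocyte markers 2 were listed, CD14 and LYZ, and these summed to 117 to 134 in CAOV3 controls, 100.6 to 125 in CAOV3 with ascites, 8.39 to 13.0 in TOV21G controls and 11.6 to 20.4 in TOV21G with ascites.

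The 5 metallothionein genes lie within 1 cluster on chromosome 16 and are near-copies of each other, which bears on how well reads can be assigned to each. In GENCODE release 29 (GRCh38), MT2A lies at chr16:56608199-56609497, MT1E at chr16:56625475-56627112, MT1F at chr16:56657694-56660698 and MT1X at chr16:56682424-56684196, all on the plus strand. MT1G lies at chr16:56666731-56668065 on the minus strand. SLC30A1 and MTF1 are on the minus strand of chromosome 1, at chr1:211571568-211578742 and chr1:37809567-37859620. MT1X overlaps AC026461.1 on its own strand, and MTF1 overlaps AL929472.4 on the opposite strand. The coding sequences of the 5 metallothioneins, from the GENCODE transcripts on the same build, are shown to make the likeness visible. They are given from start to stop codon, with capitals at bases that differ from, or have no partner in, MT2A.
MT2A: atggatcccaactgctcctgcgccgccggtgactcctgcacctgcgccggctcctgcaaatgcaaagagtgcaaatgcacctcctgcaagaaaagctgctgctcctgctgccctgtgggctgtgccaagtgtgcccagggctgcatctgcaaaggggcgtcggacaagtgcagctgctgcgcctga
MT1E: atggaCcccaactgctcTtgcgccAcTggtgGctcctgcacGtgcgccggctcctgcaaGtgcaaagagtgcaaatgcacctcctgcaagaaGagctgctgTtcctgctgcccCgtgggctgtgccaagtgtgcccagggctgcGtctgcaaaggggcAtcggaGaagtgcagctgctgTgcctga
MT1F: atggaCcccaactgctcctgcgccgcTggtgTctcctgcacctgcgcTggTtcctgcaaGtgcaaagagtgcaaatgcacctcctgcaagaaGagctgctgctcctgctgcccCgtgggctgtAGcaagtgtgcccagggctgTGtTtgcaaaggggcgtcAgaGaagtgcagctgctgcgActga
MT1G: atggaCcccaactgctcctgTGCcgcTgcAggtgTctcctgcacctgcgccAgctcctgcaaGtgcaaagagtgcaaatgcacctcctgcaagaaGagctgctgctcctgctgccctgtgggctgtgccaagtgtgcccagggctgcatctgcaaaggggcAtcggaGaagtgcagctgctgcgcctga
MT1X: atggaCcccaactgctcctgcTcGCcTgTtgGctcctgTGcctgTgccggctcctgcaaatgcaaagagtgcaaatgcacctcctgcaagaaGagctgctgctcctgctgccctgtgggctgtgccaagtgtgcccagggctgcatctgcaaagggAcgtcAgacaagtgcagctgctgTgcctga

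Each open reading frame encodes 20 cysteines in 61 residues, or 62 in MT1G, whose frame has 189 bases in place of 186. Aligned to MT2A, MT1E differed in 14 columns, MT1F in 16, MT1G in 12 and MT1X in 14. Identity between pairs of coding sequences ran from 88.7% (MT1F with MT1X) to 93.7% (MT1G with MT2A). Windows from all annotated transcripts of each gene were then compared. These transcripts include long forms: the exons of MT2A and of MT1X together cover the whole gene. Sequence that spliced messages lack thus enters the shares below, which can understate the overlap of spliced messages. The shares within spliced messages alone were not computed. A window of 50 bases was found unchanged in another gene for 18.3% of the windows of MT1X, 16.5% of MT1G, 7.10% of MT1E, 3.02% of MT2A and 1.22% of MT1F. With windows of 100 bases no window of MT1E, MT1F, MT1G or MT2A was shared, and 11.3% of those of MT1X were shared, with AC026461.1. SLC30A1 shared none at 50, 75 or 100 bases, and MTF1 shared 0.891% at 50 bases. The read length is not given in the sources used here, so the values of single metallothionein genes, MT1G and MT1X above all, are uncertain as to which copy the reads came from.

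The promoters of the known MTF1 targets are shown because the zinc response of these genes runs through the metal response elements there. RefSeq promoters, from 250 bases before to 50 bases after the annotated start (GRCh38.p14), were found for 4 of the 7 genes: MT2A, MT1X, SLC30A1 and MTF1. MT1E, MT1F and MT1G had no entry. The core of the element was searched as TGCACNC or TGCGCNC on both strands, and its matches are in capitals. The windows are chr16:56608334-56608633 (plus strand) for MT2A, chr16:56682220-56682519 (plus) for MT1X and chr1:211579112-211579411 (minus) for SLC30A1, each printed along the strand of its gene.
MT2A: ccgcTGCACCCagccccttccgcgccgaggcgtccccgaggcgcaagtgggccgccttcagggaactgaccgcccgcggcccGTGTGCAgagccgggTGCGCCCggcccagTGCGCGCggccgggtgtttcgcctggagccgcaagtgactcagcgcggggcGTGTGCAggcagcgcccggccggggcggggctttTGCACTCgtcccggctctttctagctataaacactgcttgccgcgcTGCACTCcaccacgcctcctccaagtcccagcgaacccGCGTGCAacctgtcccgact
MT1X: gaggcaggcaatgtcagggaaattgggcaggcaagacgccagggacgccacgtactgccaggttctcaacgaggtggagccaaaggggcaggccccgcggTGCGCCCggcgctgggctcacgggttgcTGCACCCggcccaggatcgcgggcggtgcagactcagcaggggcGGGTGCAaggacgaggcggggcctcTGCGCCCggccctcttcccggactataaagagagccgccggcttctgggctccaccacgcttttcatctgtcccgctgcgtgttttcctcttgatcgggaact
SLC30A1: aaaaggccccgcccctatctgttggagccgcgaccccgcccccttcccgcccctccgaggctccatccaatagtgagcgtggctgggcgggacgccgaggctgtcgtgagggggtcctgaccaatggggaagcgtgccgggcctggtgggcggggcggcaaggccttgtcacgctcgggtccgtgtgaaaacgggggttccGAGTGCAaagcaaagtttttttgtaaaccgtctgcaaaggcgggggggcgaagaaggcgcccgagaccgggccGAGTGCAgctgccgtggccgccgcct

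The MT2A window held 8 matches, at positions from -246 to 31 relative to the RefSeq start. Of 35116 RefSeq promoters of the same length only 7 held 8 or more, 0.0199%. MT1X had 4 matches, between -150 and -53, and 0.601% of promoters had at least 4. SLC30A1 had 2, at -49 and 25, both on the other strand, and 8.60% of promoters had at least 2. None was found in the MTF1 window (chr1:37859543-37859842), and 29.6% of promoters had at least 1. A match is a description of these letters and was not read as a bound site.

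**Figure D1:**
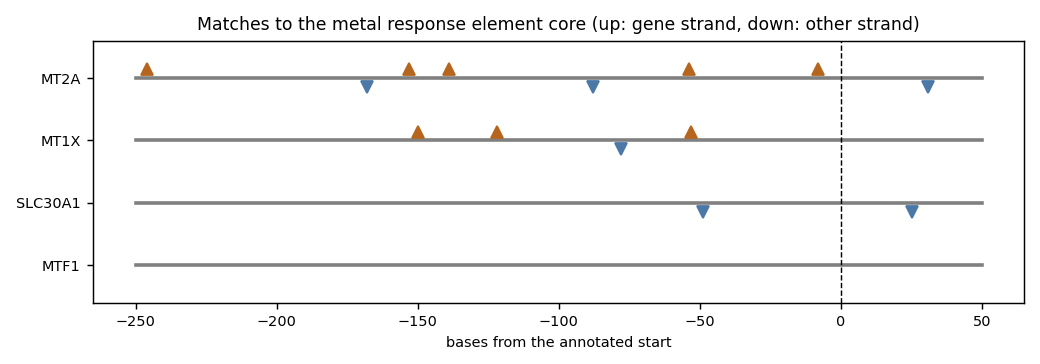
Matches to the metal response element core in the promoter windows of MT2A, MT1X, SLC30A1 and MTF1, by distance in bases from the annotated RefSeq start, with matches on the gene's strand above the line and those on the other strand below it. MT2A holds 8 matches, MT1X 4, SLC30A1 2 and MTF1 none.

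The first question was whether ascites altered these genes in CAOV3, and none of the 7 changed at an adjusted p under 0.05 (limma, p-values adjusted over all 17616 tested genes), and edgeR and DESeq2, run on read counts, called none either. In that comparison 1.73% of all tested genes were called. The differences of 3 genes, MT2A, SLC30A1 and MT1E, had an unadjusted p under 0.05, all with higher values in ascites, against 12.9% of all genes in either direction. The median difference over the 7 genes was 0.20 on the log2 scale, beside -0.0021 over all tested genes. Values are the authors' normalised read counts, and log2 differences are on the scale of log2(normalised count + 1), which understates changes of low genes.

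MT2A, the most abundant metallothionein of both lines, stood at 7126, 7465 and 6485 in CAOV3 control libraries 1, 2 and 3, and at 7985, 8236 and 7924 in the ascites libraries. The lowest ascites library lay above the highest control, and control 3 was the lowest of the 6. The difference in means was 7026 ± 498 (SD, n = 3) against 8048 ± 165, a fitted 1.15-fold (95% interval 1.04 to 1.27; log2 0.20, SE 0.067), with a limma adjusted p of 0.201 and an unadjusted p of 0.0108. With CAOV3 fitted without TOV21G, only the spread of CAOV3 libraries entered the test, and limma still shared it in part across genes. The same difference then had an SE of 0.040 and a limma adjusted p of 0.00248. MT2A was called in that fit, which called 1295 genes in all, beside 305 in the joint fit. When any 1 of the 12 libraries was left out of the joint fit, the adjusted p was between 0.109 and 0.478.

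SLC30A1, the zinc exporter, was at 1826, 1904 and 2004 in CAOV3 controls and at 2084, 2039 and 2120 with ascites. The groups again did not overlap, by a gap that was small beside the levels. The fitted difference was 1.09-fold (95% interval 1.03 to 1.16; log2 0.12, SE 0.040; limma adjusted p = 0.183). MTF1, the sensor itself, was at 577, 549 and 576 in controls and 558, 602 and 627 with ascites, so the groups overlapped, and the log2 difference was 0.07 (SE 0.055, adjusted p = 0.653).

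Among the less abundant copies, MT1E was at 43.1, 64.5 and 36.6 in CAOV3 controls and at 68.9, 68.5 and 61.4 with ascites. Control 2 lay inside the ascites range and the other 2 controls below it. The log2 difference was 0.49 (SE 0.16, limma adjusted p = 0.195). Without control 2 it was 0.72 with an adjusted p of 0.0102, which passed the threshold. Left out in turn, the other libraries gave differences down to 0.32 with adjusted p up to 0.458.

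MT1X was at 71.5, 75.3 and 52.5 in CAOV3 controls and 74.4, 77.7 and 75.7 with ascites. Its control 2 overlapped the ascites libraries, and control 3 was the low one, as it was for MT2A, MT1E and MT1F. The log2 difference of MT1X was 0.21 (SE 0.20, adjusted p = 0.738), and 0.049 without control 3. MT1F was at 67.0, 73.1 and 54.4 in controls and 62.4, 66.5 and 69.6 with ascites, inside the control range, with a log2 difference of 0.04 (SE 0.21, adjusted p = 0.989) that turned to -0.08 without control 3. MT1G, at 14.8, 11.8 and 17.8 in controls and 18.6, 22.5 and 18.4 with ascites, rested on 11 to 22 reads per library. Its groups did not overlap, but the log2 difference of 0.41 had an SE of 0.39 (adjusted p = 0.726).

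In all, 3 of the 7 genes (MT2A, SLC30A1 and MT1G) had CAOV3 groups that did not overlap, all higher in ascites. Over all tested genes 24.2% had groups that did not overlap, in either direction. Keratin genes of the epithelial list moved in the same libraries: KRT8 rose by 0.29 and KRT18 by 0.33 (log2, limma adjusted p = 0.0232 and 0.0102). CDH1 of the same list went the other way, from 425 ± 33.1 to 272 ± 8.43 (log2 -0.64, limma adjusted p = 0.438). The list's sum lay at 131717 to 132806 in CAOV3 controls and 153330 to 162634 with ascites. The fibroblast markers, 5 of 6 listed, summed to 5542 to 6404 in CAOV3 controls and 5301 to 5454 with ascites. Of these LUM, with most of the sum, gave a log2 difference of -0.20 (adjusted p = 0.936), and COL1A2, called by limma but not by edgeR or DESeq2, was at 2.46 in controls and 0.365 with ascites and passed the filter only through TOV21G. The part of either in the metallothionein values was not tested. Fewer cells of a kind and less RNA per cell cannot be told apart in these bulk libraries.

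**Figure D2:**
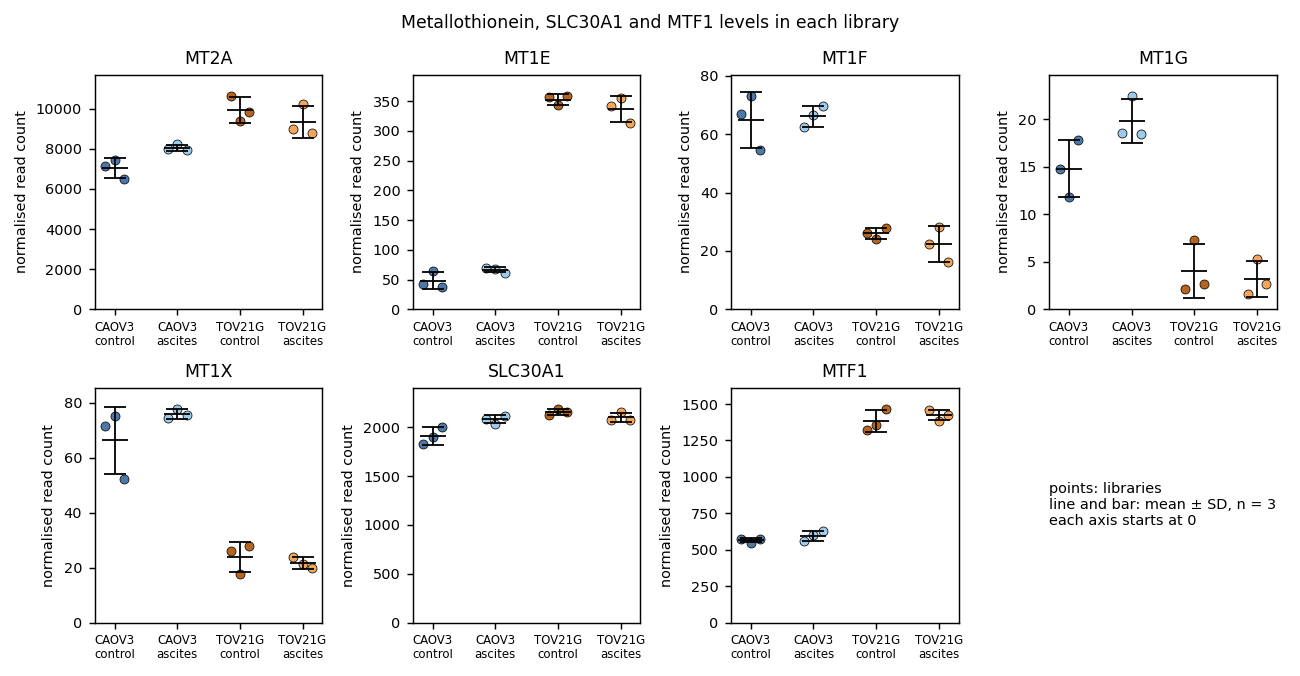
Normalised read count of each of the 7 genes in every library, by line and treatment, with points for libraries and a line and bar for the mean ± SD of 3 libraries. In CAOV3 the ascites points of MT2A (7924 to 8236) lie above the control points (6485 to 7465), while for MT1E, MT1F, MT1X and MTF1 they overlap, and in TOV21G the groups overlap for every gene.

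In TOV21G ascites left every one of the 7 genes with overlapping groups, and none was called by limma, edgeR or DESeq2 or had an unadjusted limma p under 0.05. The background there was 0.409% of tested genes called, 9.17% with an unadjusted p under 0.05 and 11.1% with groups that did not overlap. The median log2 difference of the 7 was -0.09, beside -0.018 over all genes, and adjusted p-values ran from 0.674 (MT2A) to 0.933 (MT1E). MT2A was at 10644, 9382 and 9831 in controls and 9004, 10229 and 8782 with ascites, a fitted 0.937-fold (95% interval 0.848 to 1.04). Control 1 and ascites 2 were the high libraries, so the order of the libraries did not follow treatment.

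SLC30A1 varied least in TOV21G, at 2123, 2186 and 2154 in controls and 2070, 2154 and 2079 with ascites. Its fitted ratio was 0.975 (95% interval 0.918 to 1.03). MTF1 was at 1322, 1359 and 1465 in controls and 1461, 1387 and 1425 with ascites, with overlapping groups and a log2 difference of 0.04 (95% interval -0.074 to 0.16).

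The copies with fewer reads gave wider intervals. MT1E, here the most abundant of the MT1 members, was at 357, 343 and 359 in TOV21G controls and 342, 355 and 313 with ascites (log2 -0.07, SE 0.16). MT1F was at 26.0, 24.1 and 27.8, then 22.4, 28.3 and 16.1 (log2 -0.25, SE 0.21). MT1X was at 26.0, 17.8 and 27.8, then 24.0, 21.2 and 19.7, with a log2 difference of -0.12 (SE 0.20) that became 0.0018 without control 3. MT1G, at 2.17, 7.34 and 2.69 and then 1.66, 5.31 and 2.69, rested on 2 to 7 reads per library. Its fitted ratio of 0.859 had a 95% interval of 0.478 to 1.54, and the log2 difference of -0.22 turned to 0.21 without control 2 and to 0.067 without ascites replicate 1.

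The responses of the lines were compared directly by the interaction, TOV21G response minus CAOV3 response, in which the 2 control groups enter with opposite sign. None of the 7 was called by limma, edgeR or DESeq2, where in limma 0.545% of tested genes were. An unadjusted p under 0.05 was found for MT2A (log2 -0.29, SE 0.094, limma adjusted p = 0.272), SLC30A1 (-0.16, SE 0.056, adjusted p = 0.311) and MT1E (-0.56, SE 0.23, adjusted p = 0.380), against 11.9% of all genes in either direction. All 3 values were negative, that is, lower in ascites relative to control in TOV21G than in CAOV3. For MT1F, MT1G and MT1X the differences were -0.28, -0.63 and -0.32 with adjusted p from 0.643 to 0.695. MTF1 gave -0.026 (SE 0.077, adjusted p = 0.906), and this sign flipped to 0.0016 under TMM scaling. The comparisons share their controls with the within-line contrasts and are not separate evidence.

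**Figure D3:**
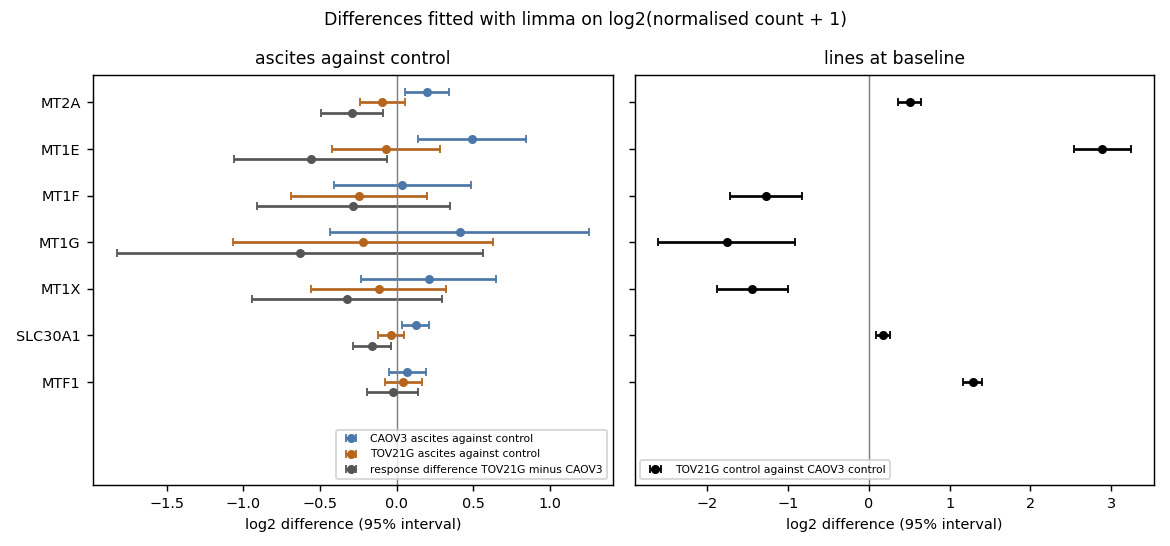
Fitted log2 differences with 95% intervals for the 7 genes, on the left for ascites against control in each line and for the contrast of the 2 responses, and on the right for TOV21G controls against CAOV3 controls. On the left the CAOV3 intervals of MT2A, MT1E and SLC30A1 stay above 0 without passing the adjusted threshold, and on the right no interval includes 0.

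The spread between replicate libraries was set beside the members. In TOV21G a single axis carried 67.7% of the variation within groups. Controls 1, 2 and 3 scored 14, -12.6 and -1.32 on it, and ascites libraries 1, 2 and 3 scored -2.45, 12.9 and -10.5. The 2 libraries at the high end, control 1 and ascites 2, were the 2 with the highest MT2A (10644 and 10229). The long nuclear transcript KCNQ1OT1 lay at 95.4, 656 and 234 in controls and 731, 235 and 1511 with ascites, and was lowest in each group in that same library, while mitochondrial genes took 1.49% to 2.71% of the counts.

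In CAOV3 the corresponding axis carried 34.8%, with control 3 at -10.1 and the other 5 libraries between -2.82 and 6.76. That library also had the lowest MT2A, MT1E, MT1F and MT1X of its line and the largest mitochondrial share, 3.35%, beside 2.48% to 3.11% in the others. In 3 of the 4 groups the libraries stood in the same order by MT2A as by score, which 7.23% of all tested genes did in at least 3 groups. The sign of the axis was arbitrary and set in each line so that control 1 was positive. Same and opposite order therefore have no common meaning across the lines. The share of genes in the opposite order in at least 3 groups was not computed, and MT2A was itself among the abundant genes that built the axis. MT1E, MT1F and MT1X stood in the order of the score in 2 groups, and 28.4% of all genes in at least 2. SLC30A1, MTF1 and MT1G did so in 0 groups, while the order was opposite to the score in 2 groups for MT1G and in 1 for SLC30A1. The part of this axis in the ascites differences was not tested.

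**Figure D4:**
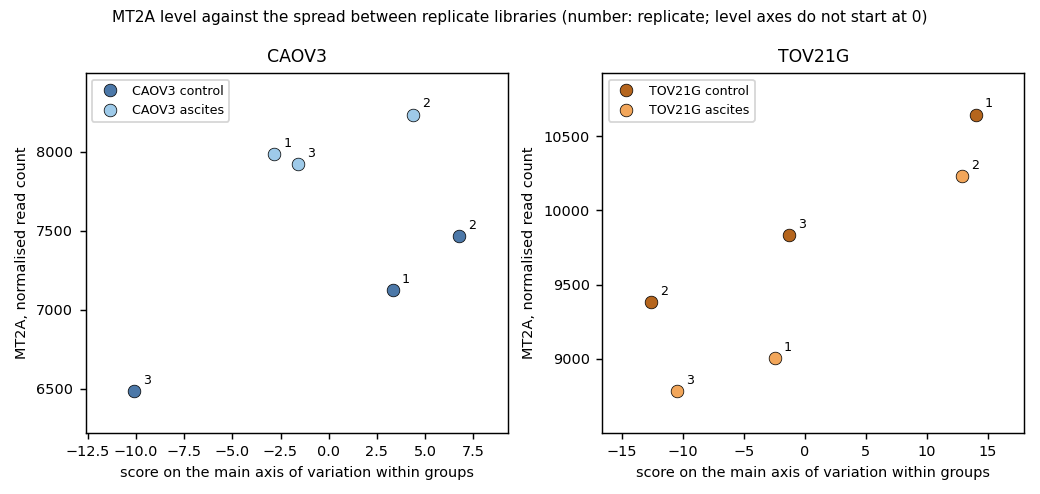
MT2A normalised read count against the score of each library on the main axis of variation within groups, for CAOV3 (left) and TOV21G (right), with numbers naming the replicates. TOV21G control 1 and ascites 2, with scores of 14 and 12.9, are the highest MT2A libraries of their groups, and CAOV3 control 3, at -10.1, is the lowest.

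At baseline the lines differed in every one of the 7 genes. In this comparison, TOV21G controls against CAOV3 controls, 82.2% of all tested genes were called, so that 7 of 7 is near the background. MT2A, MT1E, SLC30A1 and MTF1 were higher in TOV21G, and MT1F, MT1G and MT1X higher in CAOV3. A difference of at least 1 on the log2 scale was passed by 5 of the 7 (2 higher and 3 lower in TOV21G), where 42.3% of all genes passed it. Both counts include MT1G, which passed the filter on low values only through CAOV3. The directions and calls of the 7 were the same in every alternative fit and with any 1 library left out.

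MT1E separated the lines most among the members, at 48.1 ± 14.6 (SD, n = 3) in CAOV3 controls and 353 ± 8.69 in TOV21G controls. This was a fitted 7.41-fold (95% interval 5.80 to 9.46; log2 2.89, SE 0.16; limma adjusted p = 1.03e-09). MT2A was 1.42-fold higher in TOV21G (95% interval 1.28 to 1.57, adjusted p = 8.86e-06), with the lowest TOV21G control at 9382 and the highest CAOV3 control at 7465. MTF1 was 2.43-fold higher (95% interval 2.24 to 2.64, adjusted p = 5.10e-11), with 567 ± 16.0 against 1382 ± 74.2. SLC30A1 differed by 1.13-fold only (95% interval 1.06 to 1.20, adjusted p = 0.00119).

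The 3 other copies ran the opposite way. MT1X was at 66.4 ± 12.2 in CAOV3 controls and 23.9 ± 5.33 in TOV21G controls (log2 -1.44, SE 0.20, limma adjusted p = 1.61e-05). For MT1F the means were 64.8 ± 9.53 and 26.0 ± 1.85 (log2 -1.28, SE 0.21, adjusted p = 5.77e-05). MT1G, on few reads, was at 14.8 ± 2.99 and 4.07 ± 2.85 (log2 -1.76, SE 0.39, adjusted p = 0.000897). It passed the filter only through CAOV3, the line where it was higher, so its call is not independent of the filter. No control library of one line overlapped those of the other for any of the 7 genes. The share of all tested genes without such overlap was not computed. As 82.2% of them were called between the lines, the lack of overlap is not read as particular to the 7.

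Of 15 other metallothionein genes sought 3 were listed, and the 2 of these that were tested differed between the lines, in opposite directions. MT1A, the copy at chr16:56638666-56640087, was at 332 to 442 in CAOV3 controls and 48.5 to 64.0 in TOV21G controls (log2 -2.84, adjusted p = 4.59e-09). MT1L at chr16:56617476-56618818, annotated as a transcribed pseudogene, was at 11.8 to 23.8 and 482 to 567 (log2 4.84, 28.6-fold, adjusted p = 7.56e-11). With ascites in CAOV3, MT1L was at 26.6 to 40.5 (log2 0.80, adjusted p = 0.0970) and MT1A at 455 to 489 (log2 0.22, adjusted p = 0.674). MT2P1, a pseudogene, was at 3.07 to 9.11 in all 12 libraries and was not tested.

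Per kilobase of annotated exon, MT2A exceeded every other copy in both lines. The mean level per kilobase in CAOV3 controls was 5408 for MT2A, 1018 for MT1A, 45.7 for MT1E, 44.5 for MT1L, 37.5 for MT1X, 34.3 for MT1F, 28.8 for MT2P1 and 19.7 for MT1G. From MT1E down to MT1G each neighbour's range of libraries overlapped the next. In TOV21G controls the order was 7662 for MT2A, 1294 for MT1L, 335 for MT1E, 140 for MT1A, 27.7 for MT2P1, 13.8 for MT1F, 13.5 for MT1X and 5.42 for MT1G, with overlap between MT1F and MT1X. Lengths counted every base of any annotated exon, so the order and the gaps depend on them. They were 1299 for MT2A, 396 for MT1A, 411 for MT1L, 183 for MT2P1, 1889 for MT1F and 1773 for MT1X. Undivided, MT2A and MT1A averaged 7026 and 403 in CAOV3 controls, and MT2A and MT1L 9952 and 532 in TOV21G controls. These gaps are wider than those per kilobase. Before division by length, MT2P1 averaged 5.06 in TOV21G controls, below MT1F at 26.0 and MT1X at 23.9. It rested there on 4 to 6 reads per library. Per kilobase, SLC30A1 was at 349 and 394 and MTF1 at 70.7 and 172 in CAOV3 and TOV21G controls. MT2A supplied 95.85% to 97.57% of the summed normalised count of the 5 members in every library. That sum, 7220 ± 529 in CAOV3 controls, 8276 ± 171 with ascites, 10359 ± 648 in TOV21G controls and 9722 ± 804 with ascites, therefore followed MT2A.

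**Figure D5:**
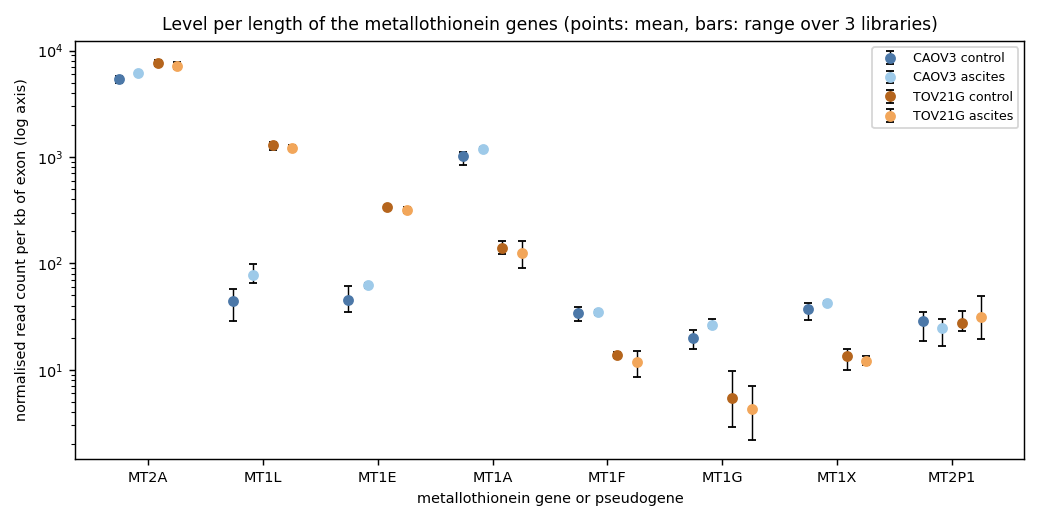
Mean normalised read count per kilobase of annotated exon for 8 metallothionein genes and pseudogenes in the 4 groups, on a log axis, with bars for the range of 3 libraries. MT2A is highest in all groups, MT1A is second in CAOV3 (1018 in controls) and MT1L second in TOV21G (1294 in controls).

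No zinc transporter on the SLC30 and SLC39 lists was called with ascites by limma, edgeR or DESeq2. Of 7 SLC30 transporters tested, the family that moves zinc out of the cytosol, SLC30A1 was the 1 with an unadjusted limma p under 0.05 in CAOV3, there were 0 in TOV21G, and the median log2 difference was -0.0015 in CAOV3 and -0.037 in TOV21G. Of 12 SLC39 transporters, which bring zinc into the cytosol, 2 had an unadjusted p under 0.05 in CAOV3 and 0 in TOV21G. The smallest adjusted p among the importers was that of SLC39A1, at 5841 ± 256 in CAOV3 controls and 6542 ± 107 with ascites (log2 0.16, adjusted p = 0.228). At baseline, where 82.2% of all tested genes were called, 5 SLC30 genes were higher and 1 lower in TOV21G, among them SLC30A4 at 18.2 ± 7.08 in CAOV3 and 341 ± 11.02 in TOV21G (log2 4.23, adjusted p = 1.70e-09). Of the importers 3 were higher and 8 lower in TOV21G, with SLC39A6 1.35 higher and SLC39A4 0.69 lower on the log2 scale. Of 11 copper genes, whose metal metallothioneins also bind, none was called with ascites by these 3 tools, and the 1 with an unadjusted limma p under 0.05 was ATP7A, a copper exporter (log2 -0.21 in CAOV3, adjusted p = 0.205).

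Other inputs to metallothionein transcription were read from their targets. Of 9 glucocorticoid targets tested, limma called 1 in CAOV3, where edgeR and DESeq2 called 2 each. In TOV21G all 3 tools called 0, with 3 at an unadjusted limma p under 0.05. CEBPD, a transcription factor gene induced by glucocorticoids and by cytokines, rose from 99.4 ± 9.50 to 163 ± 6.58 in CAOV3 (log2 0.71, SE 0.085, limma adjusted p = 0.000630), and was at 1320 ± 123 and 1433 ± 87.6 in TOV21G (log2 0.12, adjusted p = 0.672). TSC22D3, also known as GILZ and a glucocorticoid target, had a log2 difference of -0.28 in CAOV3 (adjusted p = 0.116). Of 13 heat shock and metal stress genes limma and edgeR called none in either line and DESeq2 called 1 in TOV21G, with 0 in CAOV3 and 3 in TOV21G at an unadjusted limma p under 0.05. HMOX1, the heme oxygenase induced by cadmium and oxidants, was at 162 ± 4.17 and 168 ± 17.2 in CAOV3 and 3297 ± 252 and 2767 ± 233 in TOV21G.

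Genes that flank the cluster on chromosome 16 were listed beside it. Of 7 tested, SLC12A3 alone was called with ascites by limma. It fell in CAOV3 from 25.6 ± 8.32 to 7.08 ± 4.32 (log2 -1.80, limma adjusted p = 0.0102). At baseline 2 of the 7 were higher and 4 lower in TOV21G, near the 82.2% of all tested genes called. SLC12A3, a sodium chloride transporter gene, was among the higher ones (log2 2.13), and OGFOD1 among the lower (-0.67).

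Genes whose levels varied most like those of the members were ranked by Pearson correlation over the 12 libraries after centring each line on its mean, as a description over libraries that share their depth and the within-group axis. For MT2A these were GFUS (r = 0.975), NHP2 (0.968) and VPS37B (0.968). TRMT61B (0.950), ATP5MK (0.931) and VPS72 (0.905) came nearest to MT1X. For SLC30A1 they were G2E3-AS1 (0.930), listed at 0 on average in both TOV21G groups, WDR3 (0.920) and NUDT4 (0.920). Among the members, MT2A had r = 0.802 with MT1E, 0.675 with MT1X, 0.663 with MT1F, 0.196 with MT1G, 0.462 with SLC30A1 and -0.056 with MTF1.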

How the data were processed

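RNA from 12 libraries of 2 cell lines was sequenced, and the submitters' processing notes name Trim Galore, cutadapt, STAR, HTSeq and DESeq; their versions, the genome build and the strandedness are not given in the sources used here. The authors deposited a normalised read count (a signal) for each of 19251 genes per library. In every library 100% of values were whole multiples of 1 step, within 5.33e-05 reads, so read counts of 26697609 to 34491304 per library were recovered. Gene symbols came from a table of gene names (19087 identifiers) and GENCODE 29 (136 more), and 28 identifiers had none. Coordinates are those of the annotation and entered no test.

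The test was limma 3.58.1 in R 4.3.3 (eBayes with a trend) on log2(value + 1), with a mean per group over all 12 libraries. Genes with a value of at least 10 in at least 3 libraries were tested (17616), two-sided, with Benjamini-Hochberg adjustment over all of them in each comparison and calls at 0.05. The fit was also run on simulated counts, drawn independently for each gene and without the axis of variation between replicates. That run cannot show how often calls are false in these libraries. Since spread is shared between lines, a gene low in 1 line, such as MT1G, borrows spread from the other. Alternatives were edgeR 4.0.16 and DESeq2 1.42.0 on recovered reads, TMM scaling, other pseudocounts, no filter, a replicate block, each line alone and each library left out. Replicate pairs differed by more than sampling noise (chi-square per degree of freedom 1.81 to 22.6).

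The members and lists were chosen with earlier results of these data known. All 7 members are named. From each other list at most 4 genes could be named, those with the smallest adjusted p over both ascites comparisons, and the 3 genes most correlated with MT2A, MT1X and SLC30A1. KCNQ1OT1 was named outside this rule, after its values were seen. Some listed genes are not reported here.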

Additional observations from a re-analysis of the deposited data

How the results depend on the processing

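Depth limited MT1G in TOV21G most, and 3 libraries a group limited all comparisons. Of the member values recomputed, 136 kept direction and side of the threshold in CAOV3, 133 in TOV21G, 127 for the response difference and 133 at baseline, where none differed. No member was called with ascites, or for the response difference, by edgeR or DESeq2 (which gave no adjusted p for 7 values). Members called in CAOV3 numbered 1 (MT2A) with the line fitted alone, and 0 to 1 (MT1E, without control 2) with a library left out. The cause was not tested.

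Genes called in CAOV3 with ascites numbered 305, and 511 with edgeR, 507 with DESeq2, 1295 with the line alone and 172 to 344 with 1 library left out. In TOV21G the 72 called became 114, 150, 22 and 24 to 136. For the response difference the 96 called became 148 with edgeR, 212 with DESeq2, 151 with TMM scaling and 40 to 146 with 1 library left out. No pairing by replicate number was seen (correlations of deviations -0.0196, 0.019 and 0.0155 in CAOV3, -0.113, -0.332 and 0.0193 in TOV21G, -0.0332, -0.0172 and -0.00325 between controls). With 3 libraries a group these correlations cannot exclude it. With the replicate block the called genes were 202, 33 and 57, with no member called with ascites.

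Signs turned, with no call, for MT1F in CAOV3 (-0.082 to 0.128 with a library left out), MT1G in TOV21G (-0.557 to 0.209), MT1X in TOV21G (-0.305 to 0.00181) and the MTF1 response difference (0.00163 with TMM scaling, -0.0721 to 0.0171 with a library left out). MT1G could not be tested with TOV21G fitted alone.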
